A study of Mus musculus with 8 samples.

Results

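Genes that most tissues use but mature pancreatic β-cells keep low, often called disallowed genes, were examined in islets of mice labelled as lacking Tead1 in β-cells and of their controls. The 9 genes were Rest, Slc16a1, Cd81, Hk1, Acot7, Oat, Igfbp4, Mgst1 and Cxcl12. They were taken by symbol from the 48709 genes of the deposited tables, as genes known for selective silencing in mature β-cells. The β-Tead1-KO-labelled libraries came from C57BL/6 mice aged 1 year, as did the Flox/Flox control libraries (Flox below), and both were made from isolated islets. The promoter driving Cre is not given in the sources used here, nor is the deleted exon. Each genotype had 2 libraries, each run on 2 lanes that were summed. The series text gives 3 pooled samples per library, while the sample descriptions carry 1 or 2 animal-like numbers, so the size of each pool is unclear.

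A β-cell couples insulin release to blood glucose by burning glucose in its mitochondria. Silencing of Slc16a1, which encodes the plasma membrane transporter for lactate and pyruvate (MCT1), keeps these fuels from triggering insulin release during exercise. Silencing of Hk1, a hexokinase with high affinity for glucose, keeps β-cells from burning glucose at low blood glucose. REST represses neuronal genes outside neurons, and its loss in the endocrine lineage frees neuron-like secretory genes.

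The targeted gene was read first. Tead1 had 137 and 163 CPM in β-Tead1-KO-labelled libraries, against 101 and 124 CPM in Flox libraries (CPM is exon reads relative to library size, with TMM factors that even out library composition). Its log2 fold change of 0.41 (SE of 0.19) was not called (n = 2 per genotype, edgeR adjusted p = 0.347). A gene total cannot show a missing exon, and islets hold other cells, so this total does not check the labels. Tead1 had 3207 and 17881 intron reads in β-Tead1-KO-labelled libraries, against 883 and 3593 in Flox libraries. These made up 51.3% and 80.4% of its gene reads, against 28.8% and 67.2% in Flox. Exon-exon junction reads were 10.1% and 10.2% of its exon reads, against 12.8% and 12.5% in Flox. The cause of these differences was not tested. Exon reads totalled 22352518 and 26387280 in β-Tead1-KO-labelled libraries, and 21938244 and 14069569 in Flox libraries. Insulin transcripts made up 17.0% and 15.2% of exon reads in β-Tead1-KO-labelled libraries, and 18.3% and 20.4% in Flox libraries, so the defining islet hormone was abundant in every library. Reads in introns made up 29.4% and 38.0% of gene reads in β-Tead1-KO-labelled libraries, and 28.8% and 43.1% in Flox libraries. Library 2 stood above library 1 in this share in both genotypes. In whole islets, fewer cells of a type and less RNA per cell cannot be told apart. With 2 libraries per genotype, p-values cover only the spread between these libraries.

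The start regions of 5 of these genes are printed below because they carry a searched motif or sit at one of the genes that rose. Sequences are from RefSeq on GRCm38.p6, 5′ to 3′ on the gene's own strand, and run from 250 bases before the start to 50 after it. RefSeq windows were matched by symbol for 8 of the 9 genes, in 10 windows, and none was matched for Rest. Capitals mark a searched motif.
Slc16a1 (chr3:104638414-104638713, plus strand): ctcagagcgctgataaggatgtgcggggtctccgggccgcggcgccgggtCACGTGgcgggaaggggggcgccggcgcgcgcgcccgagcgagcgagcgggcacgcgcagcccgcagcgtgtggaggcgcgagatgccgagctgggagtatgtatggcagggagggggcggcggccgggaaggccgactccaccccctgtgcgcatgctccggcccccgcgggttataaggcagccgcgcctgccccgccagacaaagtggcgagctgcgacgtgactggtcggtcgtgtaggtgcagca
Cd81 (chr7:143052500-143052799, plus strand): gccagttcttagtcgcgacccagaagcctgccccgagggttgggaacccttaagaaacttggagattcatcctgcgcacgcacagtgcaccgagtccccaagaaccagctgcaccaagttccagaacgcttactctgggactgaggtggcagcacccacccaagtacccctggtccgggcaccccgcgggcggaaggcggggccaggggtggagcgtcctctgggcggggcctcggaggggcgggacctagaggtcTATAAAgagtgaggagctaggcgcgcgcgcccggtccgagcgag
Hk1, its second window (chr10:62340372-62340671, minus strand): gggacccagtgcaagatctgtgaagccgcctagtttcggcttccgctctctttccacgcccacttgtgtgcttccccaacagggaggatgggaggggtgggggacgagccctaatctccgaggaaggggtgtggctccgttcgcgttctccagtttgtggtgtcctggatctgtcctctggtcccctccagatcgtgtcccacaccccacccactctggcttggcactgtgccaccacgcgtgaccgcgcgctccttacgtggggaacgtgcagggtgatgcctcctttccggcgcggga
Oat (chr7:132576349-132576648, minus strand): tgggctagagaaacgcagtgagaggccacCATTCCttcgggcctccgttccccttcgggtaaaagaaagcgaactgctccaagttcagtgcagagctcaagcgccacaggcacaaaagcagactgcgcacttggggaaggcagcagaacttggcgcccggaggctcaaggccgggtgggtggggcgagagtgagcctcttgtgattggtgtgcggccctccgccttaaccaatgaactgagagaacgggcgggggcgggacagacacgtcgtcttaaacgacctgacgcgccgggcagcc
Igfbp4 (chr11:99040994-99041293, plus strand): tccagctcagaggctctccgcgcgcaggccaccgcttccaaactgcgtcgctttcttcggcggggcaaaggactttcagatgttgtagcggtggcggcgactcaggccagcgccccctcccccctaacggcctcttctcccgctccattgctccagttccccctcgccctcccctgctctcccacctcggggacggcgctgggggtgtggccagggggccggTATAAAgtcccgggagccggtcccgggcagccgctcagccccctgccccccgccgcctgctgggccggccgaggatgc

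5 motifs were searched on both strands. GGAATG, the core bound by TEAD factors, was found only in the window of Oat, on its minus strand and so printed as CATTCC, starting at position -221 from the gene's start; 14.7% of all 32851 windows hold it. CACGTG, an E-box, was in the Slc16a1 window, starting at position -200, and is held by 7.15% of windows. TATAAA, the TATA box, was in the Cd81 window from position 7 and in the Igfbp4 window from position -28, and is held by 13.6% of windows. The RE1 core bound by REST and a palindromic HNF1 core were in none of the 10 windows, and in 12 and 3 of all 32851. The Slc16a1 window holds 42 CpG, as many as or more than 97.4% of windows, where the median window holds 7. The Hk1 gene has one window with 1 CpG and another, printed above, with 20. A match is a description of the letters and no evidence of binding.

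Among the 9 genes, 4 rose and none fell in β-Tead1-KO-labelled libraries: Rest, Slc16a1, Cd81 and Hk1. Over all 15014 tested genes, 3.36% changed in either direction at an edgeR adjusted p below 0.05, 1.76% higher and 1.60% lower. All 9 genes passed the filter on low counts. Their median log2 fold change was 0.40, against -0.01 over all tested genes. The remaining 5 genes, Acot7, Oat, Igfbp4, Mgst1 and Cxcl12, did not pass, which does not show that they were alike in both genotypes.

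Rest, the repressor of neuronal genes, lies on mm10 chr5:77265491-77286432 on the plus strand (ENSMUSG00000029249). It had 18.3 and 23.6 CPM in β-Tead1-KO-labelled libraries, against 4.46 and 3.60 CPM in Flox libraries. These rest on 409 and 629 exon reads in β-Tead1-KO-labelled libraries, and on 96 and 51 in Flox libraries. Both β-Tead1-KO-labelled libraries stood above both Flox libraries, as they did for 23.8% of all tested genes. The level averaged 21.0 ± 3.73 CPM in β-Tead1-KO-labelled libraries and 4.03 ± 0.609 CPM in Flox libraries (SD, n = 2 each). The log2 fold change of 2.37 (SE of 0.24, a 5.18-fold difference) was the largest of the 9 genes (edgeR adjusted p = 0.0111). By p-value Rest ranked 110 among all tested genes.

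Slc16a1, the gene for the lactate and pyruvate carrier, spans mm10 chr3:104638668-104658462 on the plus strand (ENSMUSG00000032902). It had 4.97 and 5.67 CPM in β-Tead1-KO-labelled libraries, from 111 and 151 reads, against 1.21 and 1.20 CPM in Flox libraries, from 26 and 17 reads. The genotypes did not overlap, and the low Flox level rests on few reads. The log2 fold change was 2.14 (SE of 0.30, a 4.41-fold difference, edgeR adjusted p = 0.0256).

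Cd81 encodes a tetraspanin, a membrane organiser known as a surface marker of immature β-cells in mouse, and spans mm10 chr7:143052739-143067934 on the plus strand (ENSMUSG00000037706). It had 208 and 172 CPM in β-Tead1-KO-labelled libraries, against 78.4 and 79.6 CPM in Flox libraries. The Flox libraries lay close together and both lay below β-Tead1-KO-labelled libraries. The log2 fold change was 1.27 (SE of 0.17, a 2.41-fold difference, edgeR adjusted p = 0.0225), on 1128 or more exon reads in every library.

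Hk1, the hexokinase with high glucose affinity, spans mm10 chr10:62268855-62379908 on the minus strand (ENSMUSG00000037012). It had 17.9 and 17.5 CPM in β-Tead1-KO-labelled libraries, against 8.50 and 7.55 CPM in Flox libraries, again without overlap. The log2 fold change was 1.14 (SE of 0.19, a 2.20-fold difference, edgeR adjusted p = 0.0406), the call nearest to the threshold among the 4.

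**Figure D1:**
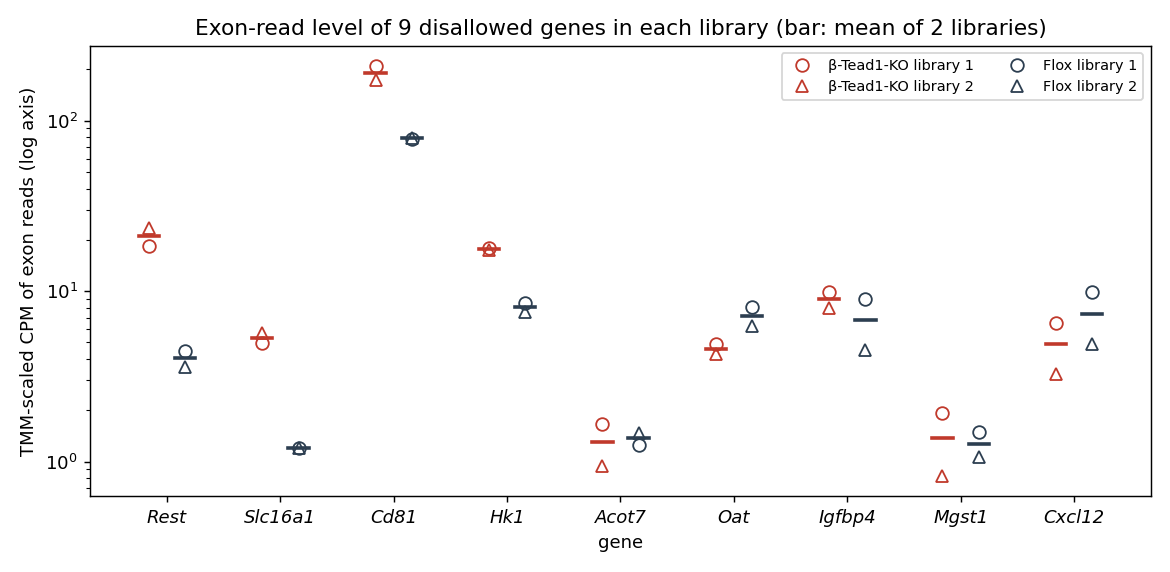
TMM-scaled exon CPM (log axis) of the 9 disallowed genes in each library, with β-Tead1-KO-labelled libraries in red to the left of Flox in dark blue, circles for library 1, triangles for library 2 and bars for the mean of 2 libraries. Rest, Slc16a1, Cd81 and Hk1 lie above Flox in both β-Tead1-KO-labelled libraries, Oat lies below, and the genotypes overlap for Acot7, Igfbp4, Mgst1 and Cxcl12.

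The 5 other genes did not pass the test. On mm10 they span chr4:152178134-152271855 (Acot7, plus strand), chr7:132557478-132576398 (Oat, minus strand), chr11:99041244-99054392 (Igfbp4, plus strand), chr6:138140316-138156755 (Mgst1, plus strand) and chr6:117168535-117181367 (Cxcl12, plus strand). Acot7, an acyl-CoA thioesterase, had 1.66 and 0.938 CPM in β-Tead1-KO-labelled libraries, against 1.25 and 1.48 CPM in Flox libraries (log2 fold change -0.08, SE of 0.47, edgeR adjusted p = 0.956). Its genotypes overlapped, on 37 reads at most in any library. Mgst1, a membrane-bound glutathione transferase, had 1.93 and 0.826 CPM in β-Tead1-KO-labelled libraries, against 1.49 and 1.06 CPM in Flox libraries (log2 fold change 0.08, SE of 0.55, edgeR adjusted p = 0.962). Their standard errors of 0.47 and 0.55 exceed those of the 4 genes that rose, 0.17 to 0.30.

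Igfbp4, which binds insulin-like growth factors, had 9.95 and 7.99 CPM in β-Tead1-KO-labelled libraries, against 8.96 and 4.51 CPM in Flox libraries (log2 fold change 0.40, SE of 0.36, edgeR adjusted p = 0.651). Cxcl12, a chemokine made mainly by stromal and endothelial cells, had 6.54 and 3.27 CPM in β-Tead1-KO-labelled libraries, against 9.85 and 4.87 CPM in Flox libraries (log2 fold change -0.60, SE of 0.47, edgeR adjusted p = 0.595). Mgst1, Igfbp4 and Cxcl12 were higher in library 1 than in library 2 of both genotypes, as were Hk1 and Oat. For Cxcl12 the gap between the libraries of a genotype was 0.98 on the log2 scale in β-Tead1-KO-labelled libraries and 1.00 in Flox, both larger than its fold change.

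Oat encodes ornithine aminotransferase, a mitochondrial enzyme linking ornithine to glutamate and proline. It had 4.88 and 4.28 CPM in β-Tead1-KO-labelled libraries, against 8.03 and 6.21 CPM in Flox libraries. It was the 1 gene of the 9 whose β-Tead1-KO-labelled libraries both lay below Flox, but it did not pass the test (log2 fold change -0.64, SE of 0.26, edgeR adjusted p = 0.297, unadjusted p = 0.0498). Among all tested genes, 23.8% had both β-Tead1-KO-labelled libraries above Flox and 24.2% had both below. Only 71.5% of Oat exon reads were unique, against 97.8% or more for each of the other 8 genes, and Oat lies inside the annotated span of Fgfr2 on the same strand.

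Levels were compared between genes per length, on the authors' TPM. Cd81 was the highest of the 9, at 154 ± 13.6 TPM in β-Tead1-KO-labelled libraries and 60.6 ± 3.61 TPM in Flox libraries (SD, n = 2 each). It stood at percentile 96.6 of tested genes in β-Tead1-KO-labelled libraries and 90.8 in Flox, so it was abundant in control islets too. Slc16a1 was the lowest of the 9 in Flox, at 2.82 ± 0.392 TPM in β-Tead1-KO-labelled libraries and 0.601 ± 0.0241 TPM in Flox libraries. Rest averaged 6.82 ± 1.52 TPM in β-Tead1-KO-labelled libraries and 1.23 ± 0.128 TPM in Flox libraries, that is, percentile 40.4 and percentile 15.3. Hk1 averaged 4.86 ± 0.156 TPM in β-Tead1-KO-labelled libraries and 2.07 ± 0.0722 TPM in Flox libraries. In Flox the order was Cd81, Oat, Igfbp4, Hk1, Cxcl12, Acot7, Mgst1, Rest and Slc16a1. From Hk1 down to Rest in that order, Flox means ran from 2.07 to 1.23 TPM and each gene overlapped the next in its library values. In β-Tead1-KO-labelled libraries, Rest came next after Cd81, and its library values did not overlap those of Hk1.

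Reads of other classes were tested in the same libraries, as separate fits with their own scaling. Reads across exon-exon junctions come from spliced RNA. On them 3 of the 9 genes rose, Rest, Cd81 and Hk1, where 4.20% of 12465 tested genes changed. Rest had 26 and 44 junction reads in β-Tead1-KO-labelled libraries, against 6 and 1 in Flox libraries (log2 fold change 2.87, SE of 0.58, edgeR adjusted p = 0.0435). The Rest value rests on few Flox junction reads. It was 4.16 without Flox library 1, and the call was lost without Flox library 2 (edgeR adjusted p = 0.0508), with no filter (0.0619) and with a replicate block (0.0579). Slc16a1 had 23 and 31 junction reads in β-Tead1-KO-labelled libraries, against 9 and 5 in Flox libraries, and did not pass (a 2.82-fold difference, edgeR adjusted p = 0.133). For Cd81 the junction log2 fold change was 1.46 (SE of 0.19, edgeR adjusted p = 0.0112), and for Hk1 it was 1.24 (SE of 0.19, edgeR adjusted p = 0.0155), close to their exon values. Mgst1 junction reads stood at 26 and 15 in β-Tead1-KO-labelled libraries against 6 and 6 in Flox libraries, and did not pass (log2 fold change 1.31, SE of 0.60, edgeR adjusted p = 0.320).

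Intron reads come largely from unspliced RNA, and 5 of the 9 genes had enough of them to test. None passed in edgeR, where 0.748% of 14443 tested genes did; 3 of the 5, Rest, Cd81 and Hk1, had an unadjusted p below 0.05, and no other tool was run on intron reads. Rest had 9.54 and 8.11 intron CPM in β-Tead1-KO-labelled libraries, against 2.53 and 1.37 in Flox libraries (log2 fold change 2.19, SE of 0.52, edgeR adjusted p = 0.116), without overlap. The value was 2.71 without Flox library 1 and 1.76 without Flox library 2. Rest passed on intron reads with the library number as a replicate block (edgeR adjusted p = 0.00366). Hk1 had 5.64 and 11.8 intron CPM in β-Tead1-KO-labelled libraries, against 4.06 and 3.85 in Flox libraries (log2 fold change 1.15, SE of 0.50, edgeR adjusted p = 0.544).

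The fold change of Cd81 was negative on intron reads, the opposite sign to its exon reads. It had 180 and 563 intron reads in β-Tead1-KO-labelled libraries, against 293 and 2317 in Flox libraries, giving 24.2 and 28.3 CPM against 49.5 and 144 CPM in Flox (log2 fold change -1.88, SE of 0.53, edgeR adjusted p = 0.208). The value was -2.42 without Flox library 1, but -0.95 without Flox library 2. With a replicate block it was -1.70, past the threshold (edgeR adjusted p = 0.00106). In Flox library 2, intron reads made up 67.3% of all Cd81 gene reads, against 14.8% in Flox library 1. Trpm5, a taste-pathway cation channel, lies on the opposite strand 1219 bp past the end of Cd81. It fell, with 10.8 and 18.8 exon CPM in β-Tead1-KO-labelled libraries against 84.8 and 163 CPM in Flox libraries (log2 fold change -3.07, SE of 0.42, edgeR adjusted p = 0.0235), and did not pass without library 1 or 2 labelled β-Tead1-KO (edgeR adjusted p = 0.111 and 0.0772). The antisense gene R74862 overlaps the Cd81 start and had 36 and 128 intron reads in β-Tead1-KO-labelled libraries, against 74 and 383 in Flox libraries. Strand use in counting is not given in the sources used here, so reads of Cd81 introns and of opposite-strand transcripts there cannot be told apart. Of the 18 nearest tested neighbours on both sides of the 9 genes, Trpm5 was the 1 that changed.

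**Figure D2:**
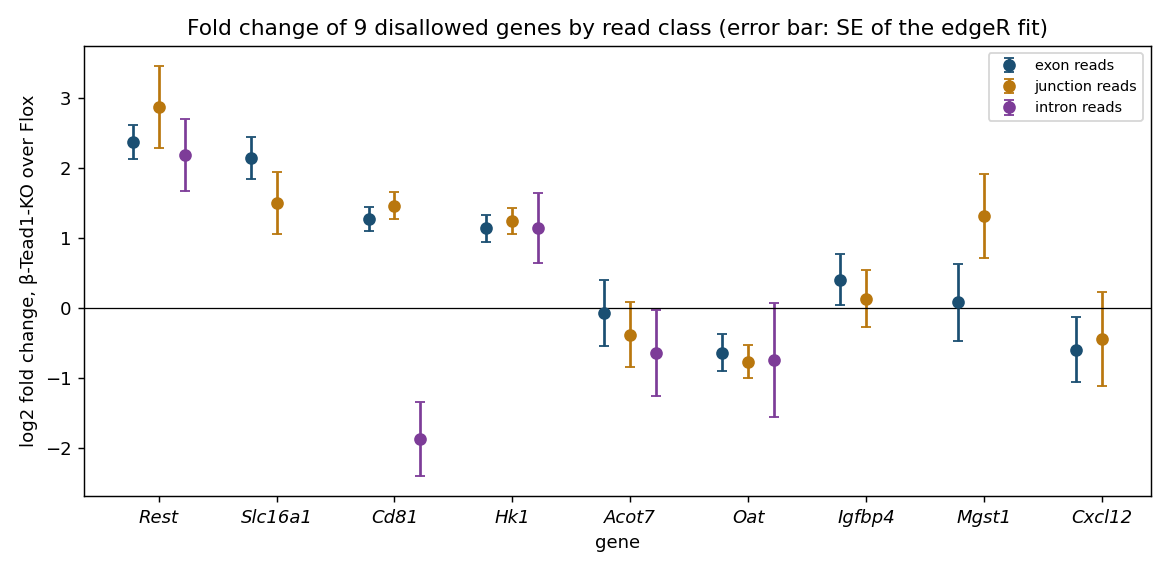
Log2 fold change (β-Tead1-KO-labelled libraries over Flox, y axis) of the 9 disallowed genes from exon, junction and intron reads, with SE bars from the edgeR fits. Exon and junction values lie together above 0 for Rest, Slc16a1, Cd81 and Hk1, while the intron value of Cd81 is -1.88; genes without an intron point had too few intron reads to test.

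A library left alone in its genotype is taken to vary as the other genotype does. A call lost in such a fit therefore does not show that the difference rests on 1 library. Nor does a call kept or gained there show that the difference is robust. Most or all of the 4 calls were lost with 1 of the β-Tead1-KO-labelled libraries left out. Without library 1 of them, Rest alone of the 4 passed (edgeR adjusted p = 0.0450), and without library 2 none of the 9 did, with Rest at 0.0772, Cd81 at 0.132, Slc16a1 at 0.254 and Hk1 at 0.262. Over these fits the number of genes called among all tested fell to 89 and 67. With either Flox library left out, all 4 still passed. On junction reads none of the 9 passed with either library labelled β-Tead1-KO left out. The exon log2 fold changes lay between 2.20 and 2.57 for Rest, 2.06 and 2.26 for Slc16a1, 1.15 and 1.42 for Cd81, and 1.06 and 1.24 for Hk1. For Acot7, Igfbp4, Mgst1 and Cxcl12 the direction turned in at least 1 of these fits.

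**Figure D3:**
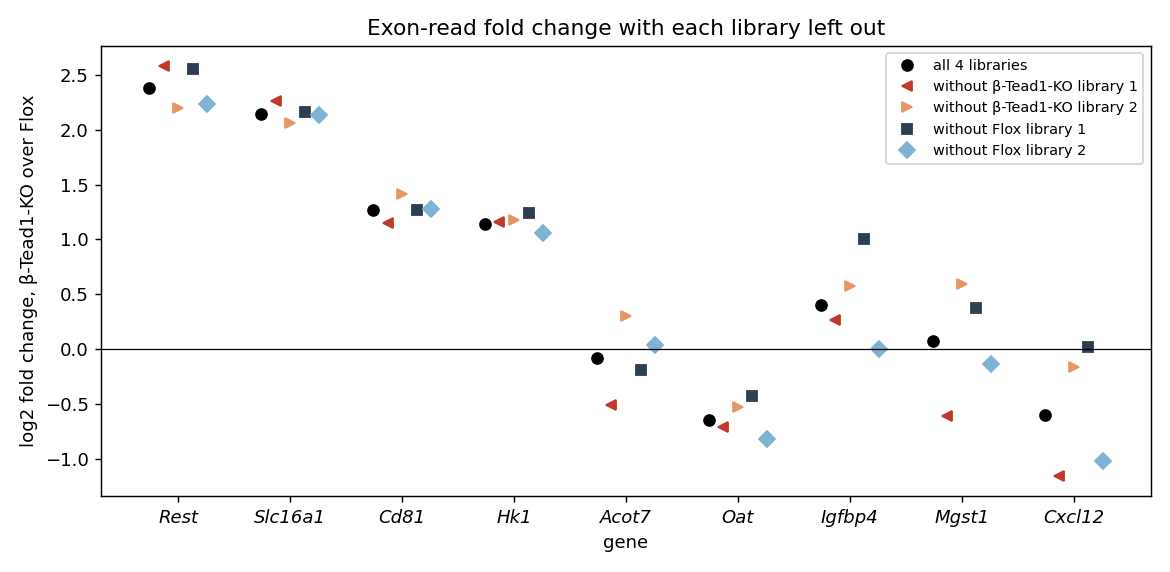
Log2 fold change (β-Tead1-KO-labelled libraries over Flox, y axis) of each of the 9 genes in the fit of 4 libraries and with each library left out. Rest, Slc16a1, Cd81 and Hk1 keep values from 1.06 upward, Oat stays below 0, and Acot7, Igfbp4, Mgst1 and Cxcl12 fall on either side of 0.

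The patterns of the 4 genes that rose were compared over the 4 libraries. After centring each gene on its own mean log2 CPM, Rest and Slc16a1 differed by a root mean square of 0.19, and Cd81 and Hk1 by 0.13, while Rest and Cd81 differed by 0.60. Over the 10817 tested genes with a mean of at least 5 CPM, the genes closest in this measure were Wwc2, Sox4 and Ppp1r3f for Rest, at 0.068, 0.0995 and 0.114. For Slc16a1 they were Pcp4l1, Ptpn3 and Amotl2, at 0.0588, 0.0720 and 0.0724. For Cd81 they were Plekhb1, Col1a2 and Ivns1abp, at 0.0353, 0.0670 and 0.0869. For Hk1 they were Serinc5, 4930523C07Rik and Tfdp2, at 0.0132, 0.0405 and 0.0488. Over 4 libraries, such closeness in part restates how alike the fold changes are, and it says nothing of shared function or control.

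A further 20 genes known for silencing in β-cells were all tested. They were chosen with earlier results of these data known, so their counts describe this list and are no independent support. Of these 4 rose and none fell, with a median log2 fold change of 0.60, and 18 of the 20 had a positive fold change. Over all tested genes 1.76% rose and 48.8% had a positive fold change. Mylk, the kinase that phosphorylates myosin light chain, had 144 and 186 CPM in β-Tead1-KO-labelled libraries, against 7.76 and 8.32 CPM in Flox libraries (log2 fold change 4.36, SE of 0.21, edgeR adjusted p = 0.00226). Smad3, a transducer of TGF-β signals, had 47.6 and 64.0 CPM in β-Tead1-KO-labelled libraries, against 6.13 and 10.7 CPM in Flox libraries (log2 fold change 2.74, SE of 0.32, edgeR adjusted p = 0.0157). Yap1, the Hippo pathway coactivator that binds TEAD factors, had 21.0 and 23.5 CPM in β-Tead1-KO-labelled libraries, against 3.85 and 5.01 CPM in Flox libraries (log2 fold change 2.33, SE of 0.23, edgeR adjusted p = 0.00930). The growth factor gene Fgf1 rose less (log2 fold change 0.99, SE of 0.16, edgeR adjusted p = 0.0344). From unique exon reads its log2 fold change was 0.66 and did not pass (edgeR adjusted p = 0.246), nor did it on lane 2 alone (0.0529). Ldha, lactate dehydrogenase A and a classic disallowed gene, had 10.1 and 5.37 CPM in β-Tead1-KO-labelled libraries, against 6.27 and 8.18 CPM in Flox libraries, and did not pass (log2 fold change 0.10, edgeR adjusted p = 0.921); it was singled out after its value was seen. Gsn, the second most abundant of the list, did not pass either (log2 fold change -0.27, edgeR adjusted p = 0.577). Of the 4, Mylk and Smad3 passed without library 1 labelled β-Tead1-KO, and Mylk alone passed without library 2.

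Genes known as targets of REST repression were set beside the rise of Rest. Of 20 tested, none passed in edgeR, while 9 had an unadjusted p below 0.05; DESeq2 called 2 higher and 2 lower, and limma-voom none. Over all tested genes 16.8% had an unadjusted p below 0.05. The targets' median log2 fold change was -0.40, with 6 of 20 positive. That median was -0.32 without Flox library 1 and -0.12 without Flox library 2. It was -0.27 and -0.28 without library 1 and 2 labelled β-Tead1-KO. With a replicate block edgeR called 2 targets higher and 1 lower, where it called 1157 of all 15014 tested genes. Chga, the granule protein chromogranin A, had 4739 and 4830 CPM in β-Tead1-KO-labelled libraries, against 10274 and 9548 CPM in Flox libraries (log2 fold change -1.05, SE of 0.48, edgeR adjusted p = 0.356). Ptprn, a secretory granule protein, did not pass either (log2 fold change -0.16, edgeR adjusted p = 0.732). Of 14 tested REST corepressors and turnover factors none passed in edgeR, DESeq2 or limma-voom and 0 had an unadjusted p below 0.05, with a median of -0.14; Usp7, among the most abundant, was at 0.21.

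**Figure D4:**
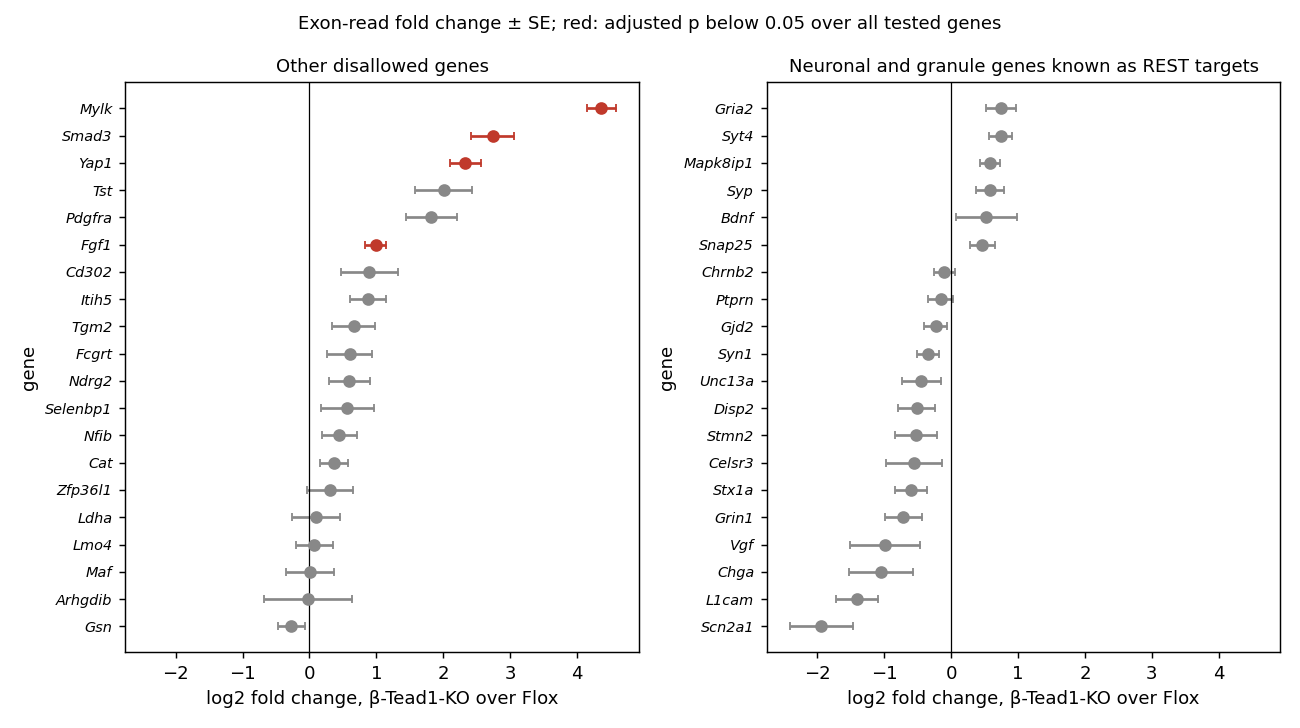
Exon-read log2 fold change ± SE (β-Tead1-KO-labelled libraries over Flox, x axis) of 20 other disallowed genes and of 20 REST target genes, in red where the edgeR adjusted p is below 0.05. Mylk, Smad3, Yap1 and Fgf1 pass on the left, and no REST target passes on the right.

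Genes that work beside Slc16a1 and Hk1 were read the same way. Of 11 tested genes of monocarboxylate and lactate handling, none passed in edgeR and 2 had an unadjusted p below 0.05. DESeq2 and edgeR with a replicate block each called 1 lower, and limma-voom called none. Their median log2 fold change was -0.14, and it was -0.07 and -0.14 without Flox library 1 and 2. Bsg (basigin), the chaperone that carries MCT1 to the membrane, had 532 and 436 CPM in β-Tead1-KO-labelled libraries, against 419 and 340 CPM in Flox libraries (log2 fold change 0.35, SE of 0.21, edgeR adjusted p = 0.493). Emb, another such chaperone, was at -0.23 (edgeR adjusted p = 0.616). Of 9 tested hexokinase and glucose entry genes, 2 fell and none rose. Slc2a2, the β-cell glucose transporter, had 156 and 218 CPM in β-Tead1-KO-labelled libraries, against 840 and 1010 CPM in Flox libraries (log2 fold change -2.30, SE of 0.26, edgeR adjusted p = 0.0138). Slc2a3, a second glucose transporter, fell by 1.70 on the log2 scale (SE of 0.31, edgeR adjusted p = 0.0496), and G6pc2, an islet glucose-6-phosphatase, did not pass (log2 fold change -0.21, edgeR adjusted p = 0.875). The Slc2a3 call was lost in legacy edgeR (adjusted p = 0.0692), limma-voom (0.0649), RLE scaling (0.0503), no filter (0.0766) and each lane alone (0.0566 and 0.0907). Neither fall passed with either library labelled β-Tead1-KO left out.

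The families of the remaining genes were read beside the 3.36% of all tested genes that changed. Of 19 tested tetraspanins and partners, 1 fell, Tspan8 (log2 fold change -1.07, SE of 0.19, edgeR adjusted p = 0.0459), and the abundant Cd63 and Tspan7 were at -0.07 and -0.25. Of 8 tested acyl-CoA thioesterases besides Acot7, none passed in edgeR, DESeq2 or limma-voom, and 1 had an unadjusted p below 0.05. Their median log2 fold change was -0.50, and it was -0.55 and -0.36 without Flox library 1 and 2. The most abundant, Acot11 and Acot13, were at -0.43 and -0.63. Of 15 genes of ornithine, arginine and proline metabolism 1 fell, Ass1, which makes argininosuccinate (log2 fold change -1.72, SE of 0.24, edgeR adjusted p = 0.0258), with Azin1 at 0.18 and Aldh18a1 at -0.08. Of 12 insulin-like growth factor genes 1 fell, Igfals, the acid-labile subunit that carries these factors in blood (log2 fold change -1.12, SE of 0.19, edgeR adjusted p = 0.0418). In that list Pappa2, a protease that cuts binding proteins, was at 0.46 and the receptor Igf1r at -1.39 (edgeR adjusted p = 0.119), neither of them past the test. Of 12 glutathione transferases 1 fell, Gstm2 (log2 fold change -1.88, SE of 0.24, edgeR adjusted p = 0.0197), with Gstp1 at 0.26 and Gstz1 at -0.11. In edgeR, 8 of the 19 tetraspanins and partners and 6 of the 12 insulin-like growth factor genes had an unadjusted p below 0.05. Median log2 fold changes of these lists were 0.38 and 0.34. So did 2 of the 15 ornithine, arginine and proline genes and 2 of the 12 glutathione transferases, against 16.8% of all tested genes. DESeq2 called 2 higher and 1 lower tetraspanin, and 2 higher and 3 lower insulin-like growth factor genes. Tspan8 and Igfals were lost with no filter (edgeR adjusted p = 0.0651 and 0.0580) and on lane 2 alone (0.0506 and 0.0664). Without Flox library 1 the median log2 fold change was 0.48 for tetraspanins and 0.47 for insulin-like growth factor genes. It was 0.04 for ornithine, arginine and proline genes and -0.30 for glutathione transferases. Without Flox library 2 these medians were 0.22, 0.26, -0.13 and -0.26.

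Around Cxcl12, 10 receptors and chemokines were tested. Dpp4, a peptidase that trims CXCL12, averaged 19.2 ± 8.76 CPM in β-Tead1-KO-labelled libraries and 93.1 ± 12.9 CPM in Flox libraries (SD, n = 2 each), without overlap (log2 fold change -2.28, SE of 0.34, edgeR adjusted p = 0.0291). Cx3cl1, a membrane-tethered chemokine, had 52.7 and 45.4 CPM in β-Tead1-KO-labelled libraries, against 18.4 and 24.1 CPM in Flox libraries (log2 fold change 1.21, SE of 0.20, edgeR adjusted p = 0.0395). The CXCL12 receptor gene Cxcr4 had 8.78 and 6.34 CPM in β-Tead1-KO-labelled libraries, against 8.17 and 5.57 CPM in Flox libraries (log2 fold change 0.13, edgeR adjusted p = 0.877); it was singled out after its value was seen. Without library 2 labelled β-Tead1-KO none of Tspan8, Ass1, Igfals, Gstm2, Dpp4 and Cx3cl1 passed, and without library 1 Dpp4 alone did.

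Most disallowed genes are used by the other cells of an islet, so markers of those cells are given beside the 4 that rose. Summed over 11 mesenchymal markers, the level was 325 and 293 CPM in β-Tead1-KO-labelled libraries, against 253 and 209 CPM in Flox libraries, and Col1a1 and Col1a2 rose. Col1a1 lay at the threshold (edgeR adjusted p = 0.0496) and was lost in legacy edgeR (0.0504), limma-voom (0.0831), no filter (0.0580) and lane 1 alone (0.0505), and Col1a2 on lane 2 alone (0.0578). DESeq2 called 4 of the 11 higher, edgeR with a replicate block called 5 and edgeR on unique exon reads called 3. Summed over 10 endothelial markers the level was 684 and 687 CPM in β-Tead1-KO-labelled libraries, against 616 and 605 CPM in Flox libraries. Of these 10, 9 had a positive fold change and 2 an unadjusted edgeR p below 0.05. DESeq2 and edgeR with a replicate block each called 1 higher. Over 10 macrophage markers the level was 157 and 133 CPM against 117 and 114 CPM in Flox, with 7 positive fold changes. There DESeq2 and edgeR with a replicate block each called 1 higher and 1 lower. Erythroid markers summed to 317 and 235 CPM in β-Tead1-KO-labelled libraries, against 121 and 52.6 CPM in Flox libraries, and Hbb-bt rose among 5 tested. All 5 had a positive fold change and an unadjusted edgeR p below 0.05, with a median log2 fold change of 1.58. DESeq2 called 3 of the 5 higher, and edgeR with a replicate block called 4. Ductal markers summed to 280 and 253 CPM in β-Tead1-KO-labelled libraries, against 225 and 224 CPM in Flox libraries. Schwann and neural markers summed to 224 and 202 CPM in β-Tead1-KO-labelled libraries, against 223 and 226 CPM in Flox libraries. With either library labelled β-Tead1-KO left out, none of Col1a1, Col1a2 and Hbb-bt passed. None of these lists had a marker at 0 in all libraries, and their part in the rise of Rest, Slc16a1, Cd81 and Hk1 was not tested.

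Acinar and lymphocyte markers differed more between libraries than between genotypes. Acinar markers summed to 900 and 7406 CPM in β-Tead1-KO-labelled libraries, against 1801 and 6456 CPM in Flox libraries, high in library 2 of both. Lymphocyte markers summed to 72.2 and 5.03 CPM in β-Tead1-KO-labelled libraries, against 227 and 14.7 CPM in Flox libraries, high in library 1 of both. Cxcl12, Igfbp4, Mgst1, Oat and Hk1 were also higher in library 1 of both, but by far less. For Hk1 the gap was only 0.029 on the log2 scale in β-Tead1-KO-labelled libraries and 0.17 in Flox. The part of lymphocytes in the values of these genes was not tested. Other endocrine markers had lower sums in β-Tead1-KO-labelled libraries, where Sst and Fam159b fell, neither of them past the test with either of those libraries left out. The α-cell markers summed to 9764 and 7889 CPM in β-Tead1-KO-labelled libraries, against 17585 and 13868 CPM in Flox libraries, and δ-cell markers to 625 and 467 CPM against 1819 and 2081 CPM in Flox. The β-cell markers summed to 213290 and 185850 CPM in β-Tead1-KO-labelled libraries, against 220960 and 224340 CPM in Flox libraries, and Slc2a2 was the 1 of 10 that edgeR called. DESeq2 called 6 of the 10 lower, and edgeR with a replicate block called 4. The median log2 fold change was -0.71, with 6 of 10 at an unadjusted edgeR p below 0.05. That median was -0.78 without Flox library 1 and -0.70 without Flox library 2.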

How the data were processed

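RNA-seq libraries from islets were deposited as 1 table per lane. Per the file headers, the authors gave each gene whole-number counts of exon, junction and intron reads, and TPM and RPKM. RPKM served only to check in each table which reads it was made from. Per the submitters' processing notes, reads were placed on mm10. The sources used here do not give which aligner, counter, annotation or strand setting was used.

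Counts were summed over both lanes, giving 4 libraries. The chi-square statistic over its degrees of freedom ran from 1.07 to 1.20 between lanes, against 48.4 and 66.8 between the libraries of a genotype, so the library was the replicate. All genes were filtered with filterByExpr (minimum count 10, minimum total 15), scaled with TMM and compared with edgeR 4.0.16 (R 4.3.3) by its 2-sided quasi-likelihood F test. P-values were adjusted by Benjamini-Hochberg across every tested gene, and 0.05 was the threshold. The biological coefficient of variation was 24.3%. The planned design named edgeR's default mode and also listed its legacy mode as an alternative, but in this version they are the same. The non-legacy mode was made the main one after both results had been seen: 504 genes pass in it and 465 in the legacy mode, and 4 of the 9 genes in either. DESeq2 1.42.0 and limma-voom (limma 3.58.1) were alternatives. The main fit was also run on counts simulated with the same dispersion for every gene. It recovered 24.5% of 98 genes changed 2-fold and 89.8% of 98 changed 4-fold, with 6 false calls. Most simulated 2-fold changes were thus missed.

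The 9 genes and all lists were chosen with earlier results of these data known. Named genes are the 9, Tead1, every gene of a pathway list past the threshold plus the 2 most abundant of each list, marker genes past the threshold, and the 3 genes closest in pattern to each called gene. A few genes that this rule names are not reported here. All 264 list entries were found. How sharply the median's alternatives are compared was tightened after values were seen.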

Additional observations from a re-analysis of the deposited data

How the results depend on the processing

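Rest, Slc16a1, Cd81 and Hk1 passed, and none of the other 5 genes did, with DESeq2, limma-voom, legacy edgeR, RLE or upper quartile scaling, TMM without hormone genes, no filter, a floor of 1 CPM (7 genes fitted), unique reads and lane 1 alone. On lane 2 alone 2 of the 9 passed. With each library left out, the number of the 9 that passed was 0 to 4 on exon reads, 0 to 3 on junction reads and 0 to 3 on intron reads, and all genes called were 67 to 2359; a library left alone in its genotype is taken to vary as the other genotype does. DESeq2 called 1117 genes. The median log2 fold change of the 9 was 1.14 at the floor of 1 CPM, which drops 2 low genes, and 0.036 to 1.00 with each library left out.

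Library numbers are not said to mark a shared batch, and deviations of same-numbered libraries correlated at 0.39 over genes, with only 2 pairs. With the library number as a replicate block, 1157 genes were called, 4 of the 9 on exon reads, 2 on junction reads and 2 on intron reads, and the median was 0.47.

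Directions turned at these log2 fold changes. Acot7 was at 0.24 on lane 1, and Mgst1 at -0.11 on lane 1 and -0.081 in limma-voom, and Cd81 at -1.88 on intron reads. With a library left out, exon values ran from -0.50 to 0.30 for Acot7, -0.61 to 0.60 for Mgst1, -1.15 to 0.018 for Cxcl12 and -0.00024 to 1.00 for Igfbp4. Junction values ran from -0.93 to 0.034 for Acot7, -1.89 to 0.30 for Cxcl12 and -0.27 to 0.82 for Igfbp4, and intron values from -1.22 to 0.20 for Acot7 and -1.64 to 1.53 for Oat. Of 254 values of single genes under an alternative, 212 kept direction and side of the threshold, 21 lost the call, 5 gained one and 16 turned; the cause was not tested. Acot7, Mgst1 and Slc16a1 in Flox had only 15 to 43 exon reads a library.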
